A study of Sus scrofa with 4 samples.

Results

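Across the 12 libraries of longissimus dorsi (LD) muscle, 119 genes were highest in every library labelled 60 d. They were chosen on the deposited values: the FPKM (fragments per kilobase of transcript, scaled for library depth) of each of the 3 libraries labelled 60 d lay above that of all 9 other libraries, the mean at 60 d was more than 1.5 times the highest mean of the other ages, and the mean count at 60 d was at least 50. The files list 22658 features, of which 9012 reached that count, and 241 of these (2.67%) had all 3 libraries of 60 d above the other 9. The genes of 4 tables of the article were left out, and none of the 51 of their 56 symbols that could be matched to an identifier passed the rule. Since the level at 60 d chose the genes, that level is given as a description, without a test.

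The muscle came from wild type, castrated male pigs of the Laiwu breed, a Chinese pig known for fat-rich muscle, kept under similar housing and feeding. Ages of 60, 120, 240 and 400 d were each represented by 3 pigs with 1 library a pig, so that no animal was followed over time. In whole muscle, a change in the number of cells of a type and a change of RNA per cell cannot be told apart. Total counts per library ran from 9713813 to 13325327. With 3 libraries an age, the tests set differences against the spread between these pigs, estimated over all ages together. The contractile genes MYL1, MYLPF and TNNC2 were abundant in every library. Of the NEB features, ENSSSCG00000016397 was at 373.5 to 2108 FPKM and ENSSSCG00000016398 at 17.5 to 164.9. ACTA1, the skeletal muscle actin gene, was listed at 0 in 7 libraries, including all 3 of 60 d, and took 5.64 to 8.57% of the counts of the other 5.

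The labels place the libraries described here at 60 d, but the age of these libraries is open to doubt. Mean FPKM values given elsewhere for the same animals under the heading 240 d were those of the libraries labelled 60 d, with a median absolute log2 difference of 0.0199 over 914 genes. Against the headings 60, 120 and 400 d the same libraries differed by 1.41, 1.36 and 1.54. The libraries labelled 400, 240 and 120 d matched the headings 60, 120 and 400 d in the same way. Which of these ages is right was not tested. Both put the same libraries together, so every value below holds for these groups of libraries, and 60, 120, 240 and 400 d are used as the ages on the labels. The order of the groups does not hold under both. A fall from 120 to 400 d by the labels would be a rise from 60 to 400 d by the headings. Words of order and direction below, such as later, youngest or fell, therefore follow the labels only.

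Mitochondria make most of the ATP of an oxidative muscle fibre. The respiratory chain passes electrons through complexes I to IV to oxygen, pumps protons as it does so, and ATP synthase uses that gradient. Most subunits are encoded in the nucleus and a few in the mitochondrial genome. Young muscle is also known for growing motor end plates and nerve sheaths, for laying down connective tissue, and for myogenic factors that fall as fibres mature.

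Of the 119 genes, 83 have a symbol, 24 have only an Ensembl identifier, and 12 are genes newly assembled by the authors. Mean FPKM at 60 d ran from 0.853 to 4686, with a median of 26.1, and was above 100 for 42 genes and below 10 for 38. The ratio of the mean at 60 d to the highest other mean had a median of 1.75, was above 2 for 23 genes and above 3 for 6. The separation between single libraries was narrower. The lowest library of 60 d exceeded the highest other library by a median of 1.12 times, and by more than 1.5 times for 7 genes. Just inside the ratio of 1.5 lay TNS2 and NAA38 (both 1.501), ENSSSCG00000001799 and BNIP1 (both 1.51) and ADAM15 (1.51). Just outside it lay PROCR (1.498) and ENSSSCG00000026813 (1.497), FBL and ENSSSCG00000021155 (both 1.49) and ENSSSCG00000021913 (1.49).

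The same rule, applied to the libraries of each other age, chose 55 genes at 120 d, 18 at 240 d and 82 at 400 d. The mirrored rule, with all 3 libraries of 60 d below the other 9, chose 74 genes. The number at 60 d depended on the scale. It was 118 on counts scaled by TMM (edgeR's trimmed mean of M-values), 103 of them shared, and 50 on counts scaled by the library total, 46 of them shared. On the latter scale 120 d had 93 genes. The reads behind 1 FPKM unit amounted to 0.878, 1.02 and 0.889 of the library total at 60 d and between 0.978 and 1.08 of it at 120 d, so the deposited FPKM is not scaled by the total count alone. Leaving out replicate 1 of 60 d gave 288 genes, of which 87 were shared, leaving out replicate 2 gave 233 and replicate 3 gave 252. Leaving out replicate 2 of 120 d gave 195. With a library left out the rule has fewer libraries to order, so a higher number is partly built in.

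The largest group was the nuclear-encoded respiratory chain and ATP synthase, with 24 genes. Complex I, which takes electrons from NADH, gave NDUFV1, NDUFV3, NDUFS7, NDUFA2, NDUFA3, NDUFA4, NDUFA6, NDUFA10, NDUFAB1, NDUFB1, NDUFB6 and NDUFC2 by their symbols, although NDUFA4 is also assigned to complex IV. Complex III gave UQCR10 and UQCR11. Complex IV, cytochrome c oxidase, gave COX4I1, COX5B, COX6B, COX7A1 and COX8H. ATP synthase gave ATP5G1 and ATP5MC3, which encode the membrane ring, ATP5I, C14ORF2 and ATP5IF1, the inhibitor of the enzyme. No gene of complex II, succinate dehydrogenase, was among them. Their ratios lay between 1.56 and 2.02, with a median of 1.74.

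COX8H, a small subunit of cytochrome c oxidase, had the highest level, at 5995, 4609 and 3453 FPKM in the libraries of 60 d. It was at 2513, 2414 and 2628 FPKM at 120 d, 1719, 1091 and 1811 at 240 d and 2120.4, 1964 and 2080.1 at 400 d. All 3 libraries of 60 d stood clear of the other 9, and the 3 libraries of 120 d lay above those of 240 and 400 d. NDUFV1, the NADH-binding subunit of complex I, was at 297, 308 and 192 FPKM at 60 d, and its other libraries lay between 89.4 and 155. The core subunit NDUFS7 was at 689, 679 and 395 FPKM at 60 d, 355, 262 and 257 at 120 d, 328, 150.1 and 288 at 240 d and 279, 238 and 312 at 400 d. COX4I1, a regulatory subunit of complex IV, was at 1517, 1347 and 923 FPKM at 60 d, and the third of these was only a little above the highest other library, at 859. ATP5G1 showed the narrowest gap, with 1462, 1156 and 804 FPKM at 60 d against 800.2 in replicate 1 of 120 d.

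The library of 60 d labelled here as replicate 3 was the lowest of its age for all 24 of these genes, and replicate 1 was the highest for 21. Summed over the 24 genes, the FPKM was 21902, 18599.6 and 13289 in the 3 libraries of 60 d. It was 11389.8, 8761 and 9540.0 at 120 d, 9402, 6140.4 and 8805 at 240 d and 8909, 8640.0 and 9228 at 400 d. Replicate 3 of 60 d thus lay nearer to replicate 1 of 120 d than to replicate 1 of its own age.

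**Figure D1:**
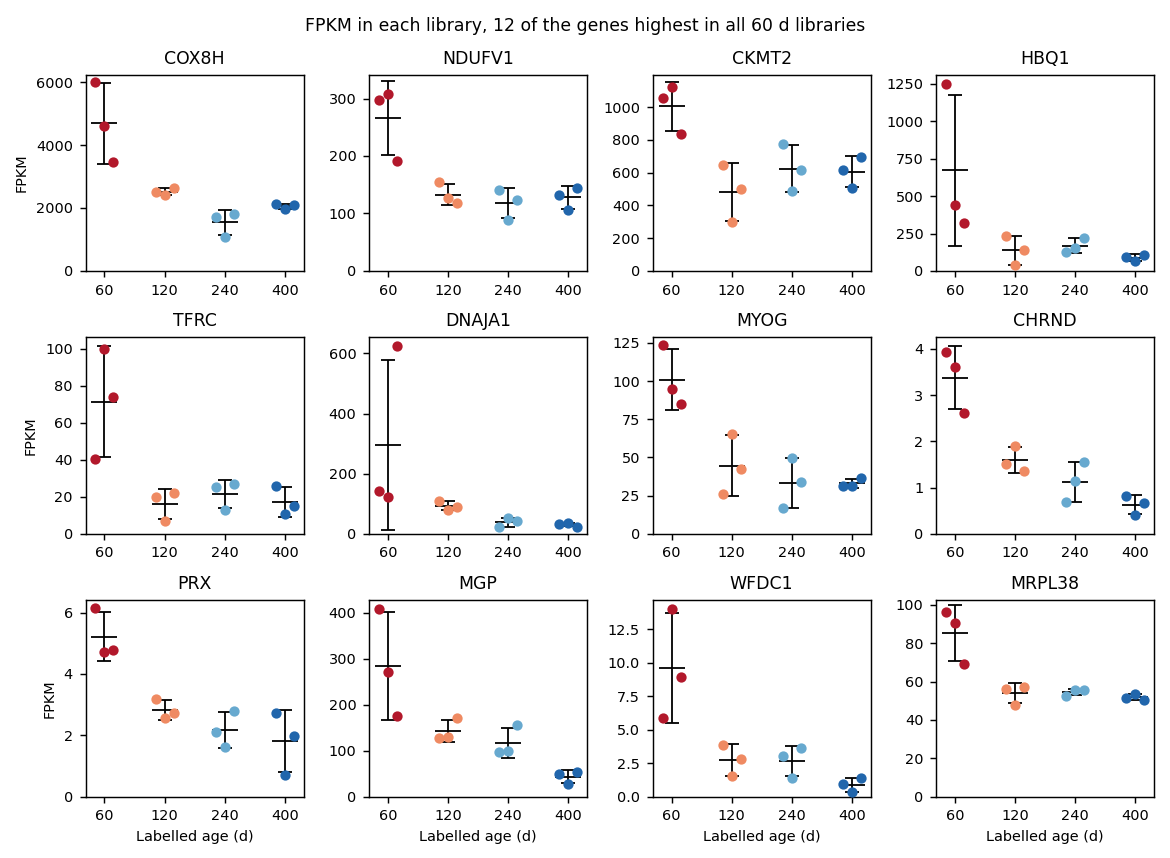
FPKM (vertical axes, from 0) in each library for 12 genes highest in all libraries labelled 60 d, by labelled age (horizontal axes). Points are libraries, horizontal bars means and error bars SD (n = 3). Every point of 60 d lies above all others of its panel, with 1 library far above the rest in HBQ1 and in DNAJA1.

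Members of these complexes that did not pass the rule leaned the same way. By symbol, 53 nuclear-encoded subunit genes had a mean of at least 50 counts at 60 d, and 24 of them (45.3%) passed, against 119 of 9012 features in all (1.32%). This family was assembled after the values were seen, and no test was made. The mean at 60 d was the highest of the 4 ages for 51 of the 53, which the rule itself fixed for 24. It was also the highest for 27 of the 29 that failed the rule, and for 33.4% of all features with that count. The 29 had a median ratio of 1.33, and 7 of them exceeded 1.5 but overlapped other ages in single libraries. The exceptions were NDUFS1 and SDHC, with ratios of 0.944 and 0.927. The fixed list of 27 oxidative phosphorylation genes held 8 of the 119, namely ATP5G1, ATP5MC3, COX4I1, COX5B, COX7A1, NDUFA2, NDUFA4 and NDUFV1. Of these 27 genes, 14 were called higher at 60 d than the mean of the other ages by edgeR's quasi-likelihood test, where 8.12% of all 13314 features tested were. Of other fixed lists, the same contrast called higher 20 of 33 interferon response, 31 of 53 collagen and matrix and 13 of 24 endoplasmic reticulum chaperone genes. It called 8 of 19 fatty acid synthesis genes higher and 2 lower, and 0 of 15 leukocyte markers. The rule chose genes on this same difference, and 8 of the 27 were among the 119, so these counts are a description, not an independent test. As described, calls higher at 60 d were found on other lists too, and nothing more is read from them.

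The transcripts that passed were short. The 24 had a median length of 719 bases and the 29 that did not pass 1188 bases, and the longest of the family, NDUFS1 and UQCRFS1, had ratios of 0.944 and 1.26. Of all 119 genes, 38 (31.9%) were at most 800 bases long, against 5.69% of the features with that count, and 17 of the 38 were respiratory genes. Outside the family, 21 of 95 genes (22.1%) were that short, against 5.45% of 8959 features. The genes that the rule chose at 120, 240 and 400 d had median lengths of 3101, 3136 and 3631 bases, and the 119 had 1530. Over all features that averaged at least 50 counts, the median log2 ratio of 60 d to the other ages fell from 0.33 at up to 400 bases to -0.15 above 5000 bases, and from 0.24 to -0.20 on TMM-scaled counts. Between features of at most 800 and above 5000 bases, the median FPKM differed on the log2 scale by 4.19, 3.61 and 3.48 in replicates 1, 2 and 3 of 60 d. It differed by 3.44 to 3.66 in the libraries of 120 d and by 3.13 to 3.41 in the 6 others. Only replicate 1 of 60 d thus lay above the libraries of 120 d. When each FPKM was divided by the median of its length class, 11 of the 24 respiratory genes and 71 of the 119 genes still passed. The part of transcript length in the result was not tested further.

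**Figure D2:**
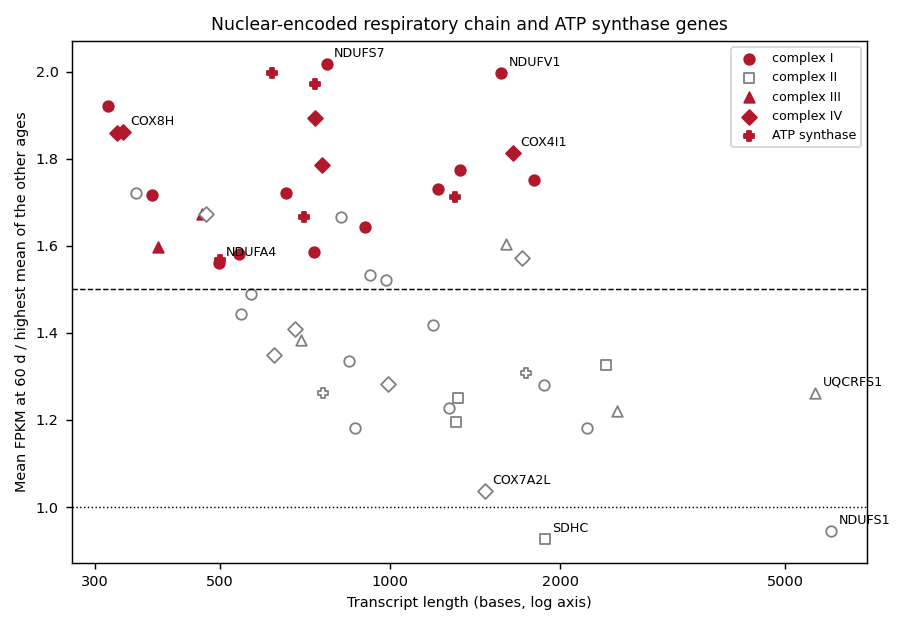
Ratio of the mean FPKM at 60 d to the highest mean of the other ages against transcript length (bases, log axis) for 53 nuclear-encoded subunit genes. Filled symbols passed the rule and open ones did not, shapes give the complex by gene symbol, and the dashed and dotted lines mark ratios of 1.5 and 1. The filled symbols lie at or below 1798 bases, while NDUFS1, the longest, lies at 0.944.

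**Figure D3:**
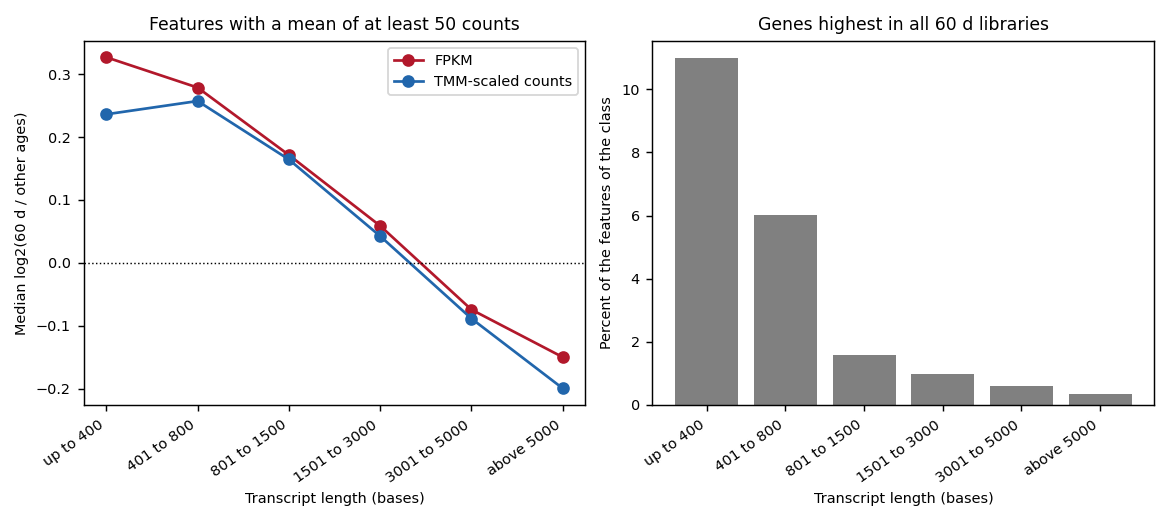
Left, median log2 ratio of 60 d to the mean of the other 9 libraries by transcript length class, on FPKM and on TMM-scaled counts, over features averaging at least 50 counts. Right, percent of the features of each class that were highest in all libraries of 60 d. Medians are highest at up to 800 bases and lowest above 5000 bases on both scales, and the percent falls from 10.99 in the shortest class to 0.339 in the longest.

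Transcripts of the mitochondrial genome did not share the pattern. Of 10 such features with at least 50 counts at 60 d, 5 had their highest mean at 60 d, and the ratios ran from 0.640 for ND6 to 1.40 for COX2. Their share of all counts was 11.1, 11.5 and 5.52% in the 3 libraries of 60 d and 5.501 to 9.76% in the other 9, so replicate 3 of 60 d was low for these too.

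Other mitochondrial proteins added 7 genes. CKMT2, the muscle creatine kinase of mitochondria, which passes ATP energy to creatine, was at 1055, 1126 and 837 FPKM at 60 d. It was at 649.6, 296 and 500.1 at 120 d, 775, 486 and 615 at 240 d and 615, 506 and 698 at 400 d, so 240 d was the next highest age. MRPL38 and MRPL2 belong to the mitochondrial ribosome. MRPL38 was at 96.6, 90.7 and 69.01 FPKM at 60 d, and its 9 other libraries stayed between 47.8 and 57.3. MRPL2 was at 66.9, 43.3 and 28.8 FPKM at 60 d against 25.6 to 28.03 elsewhere, so replicate 3 lay close to the other ages and replicate 1 far above. FOXRED1, which helps to assemble complex I, BCKDHA, a subunit of the branched-chain keto acid dehydrogenase, the transporter ABCB8 and the import co-chaperone DNAJC15 had ratios between 1.52 and 1.57.

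HBQ1, a theta globin gene, and TFRC, the transferrin receptor that takes up iron, had the highest ratios of the named genes besides WFDC1. HBQ1 (chr3:40950681-40951551 of Sscrofa10.2) was at 1251, 443 and 321 FPKM at 60 d, 234, 41.03 and 139 at 120 d, 127, 155 and 223 at 240 d and 93.3, 65.2 and 109.7 at 400 d. Globin genes resemble each other, and reads may be split among them. The summed FPKM of 4 red blood cell markers moved with it, at 1182, 364 and 219 at 60 d, 219.9, 32.1 and 142 at 120 d, 145, 136 and 277 at 240 d and 88.98, 57.3 and 101 at 400 d. Nearly all of this was HBB, and SLC4A1, a red cell membrane protein, was at or near 0 throughout. Unlike HBQ1, the marker sum of 60 d overlapped other ages, since replicate 3 lay below 2 other libraries. The part of blood in the HBQ1 level was not tested. TFRC went the other way among the libraries of 60 d, with 40.2, 100.03 and 74.1 FPKM, and was 6.87 to 26.7 in the other 9. HMOX1, which breaks down haem, was at 18.7, 24.9 and 25.8 FPKM at 60 d, 13.03, 14.97 and 13.1 at 120 d, 5.01, 6.17 and 16.02 at 240 d and 5.24, 6.68 and 2.42 at 400 d.

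Of the 5 genes of protein folding and stress, 3 were highest in replicate 3 of 60 d. DNAJA1, a co-chaperone of HSP70, was at 143, 123 and 623 FPKM at 60 d, so 1 library carried most of the mean of 296 ± 283 (SD, n = 3). It was at 109, 80.5 and 90.5 at 120 d, 21.7, 51.1 and 41.1 at 240 d and 31.8, 34.6 and 24.1 at 400 d. HYOU1, a chaperone of the endoplasmic reticulum, was at 6.97, 8.62 and 19.7 FPKM at 60 d, again with replicate 3 apart, and at 4.05 to 6.21 elsewhere. PPP1R15A, which lets translation resume after stress, was at 147, 59.5 and 154 FPKM at 60 d and at most 56.8 elsewhere, so replicate 2 stood just above the other ages. GPX7, a peroxidase of the endoplasmic reticulum, was highest in replicate 1, at 11.67, 6.62 and 6.19 FPKM. HSPA12B, an HSP70 relative of blood vessels, was at 4.68, 8.205 and 4.73 FPKM. The fixed lists of 24 heat shock and 24 endoplasmic reticulum chaperone genes held 1 gene each of the 119, DNAJA1 and HYOU1. The list of 21 oxidative and metal stress genes held GPX7 and HMOX1. Of these lists 23, 23 and 19 features had 50 counts at 60 d, and 1.32% of all features with that count passed.

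Ribosome assembly gave 4 genes. BRIX1, MRTO4 and NOB1, all needed to build ribosomal subunits, were highest in replicate 3 of 60 d, and MRTO4 was at 12.1, 15.3 and 28.2 FPKM at 60 d against 5.87 to 11.9 elsewhere. NOL12, a nucleolar protein, was at 4.96, 6.202 and 5.98 FPKM. All 4 had 240 d as the next highest age. DHX58, an RNA sensor of the antiviral response, was at 2.41, 2.22 and 5.63 FPKM at 60 d, 0.646, 1.81 and 1.57 at 120 d and at most 0.696 at 240 and 400 d. It was the 1 member on the list of 39 interferon response genes, of which 31 had 50 counts at 60 d. Since 1.32% of all features with that count passed, nothing is read from this number. The DNA replication factor GINS2, the histone gene HIST2H2AA4 and NME1, a nucleoside diphosphate kinase, had ratios of 2.45, 2.67 and 1.997. The cell division list held no member, but only 10 of its 33 matched genes had the 50 counts at 60 d that the rule requires.

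MYOG, myogenin, which drives the differentiation of muscle cells, was at 123, 94.5 and 84.7 FPKM at 60 d. It was at 25.8, 65.5 and 42.6 at 120 d, 16.6, 49.5 and 34.2 at 240 d and 31.4, 31.1 and 36.5 at 400 d, so the libraries of the 3 later ages overlapped each other and none reached 60 d. CHRND, the delta subunit of the muscle acetylcholine receptor, was at 3.93, 3.601 and 2.61 FPKM at 60 d, 1.51, 1.904 and 1.37 at 120 d, 0.687, 1.14 and 1.55 at 240 d and 0.812, 0.407 and 0.664 at 400 d. Its mean was lower at each later labelled age. POPDC2, a membrane protein of striated muscle that binds cyclic AMP, was at 27.1, 32.7 and 18.5 FPKM at 60 d and at 8.57 to 17.6 elsewhere. MYOG and CHRND were the members among the 31 matched genes of the list for developing and denervated muscle, of which 27 had 50 counts at 60 d. Of all features with that count, 1.32% passed. The 6 matched satellite cell markers, 4 of them with that count, had a summed FPKM of 54.8 to 64.1 at 60 d and 34.1 to 69.4 elsewhere. They held no member.

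PRX, periaxin, a protein that Schwann cells need to keep up the myelin around peripheral axons, had a wide gap. It was at 6.14, 4.73 and 4.77 FPKM at 60 d, 3.19, 2.57 and 2.73 at 120 d, 2.11, 1.61 and 2.78 at 240 d and 2.74, 0.716 and 1.98 at 400 d. All 3 libraries of 60 d lay clear of the other 9, and the lowest of them was 1.49 times the highest other library. Replicate 2 of 400 d was the lowest library.

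Matrix and secreted proteins gave 8 genes. MGP, matrix Gla protein, an inhibitor of calcification, was at 409, 272 and 175 FPKM at 60 d, 128, 131 and 171 at 120 d, 97.1, 99.3 and 155 at 240 d and 49.1, 27.5 and 53.4 at 400 d. Its lowest library of 60 d barely exceeded the highest of 120 d. WFDC1, a secreted protein of the whey acidic protein family, was at 5.84, 14.01 and 8.93 FPKM at 60 d and 0.353 to 3.86 elsewhere. IGFBP4, which binds insulin-like growth factors, was at 42.5, 31.2 and 47.1 FPKM at 60 d, 18.8, 25.8 and 19.6 at 120 d, 11.4, 11.1 and 18.2 at 240 d and 10.15, 4.59 and 8.06 at 400 d. COL6A1 and COL27A1 encode collagen chains, DSE an enzyme of dermatan sulfate synthesis, MMRN2 a protein of blood vessel walls and TINAGL1 a basement membrane protein, with ratios of 1.60, 1.79, 1.54, 2.09 and 1.63. COL6A1, DSE and MGP were the members on the list of 53 collagen and matrix genes, of which 50 had 50 counts at 60 d. Of all features with that count, 1.32% passed. The summed FPKM of 6 fibroblast markers was 2201, 791 and 682 at 60 d, 1019.7, 1488 and 1129 at 120 d, 757, 515 and 729 at 240 d and 545, 231 and 421 at 400 d, so replicate 1 of 60 d stood far above and the other 2 did not. The part of fibroblast content in these levels was not tested.

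**Figure D4:**
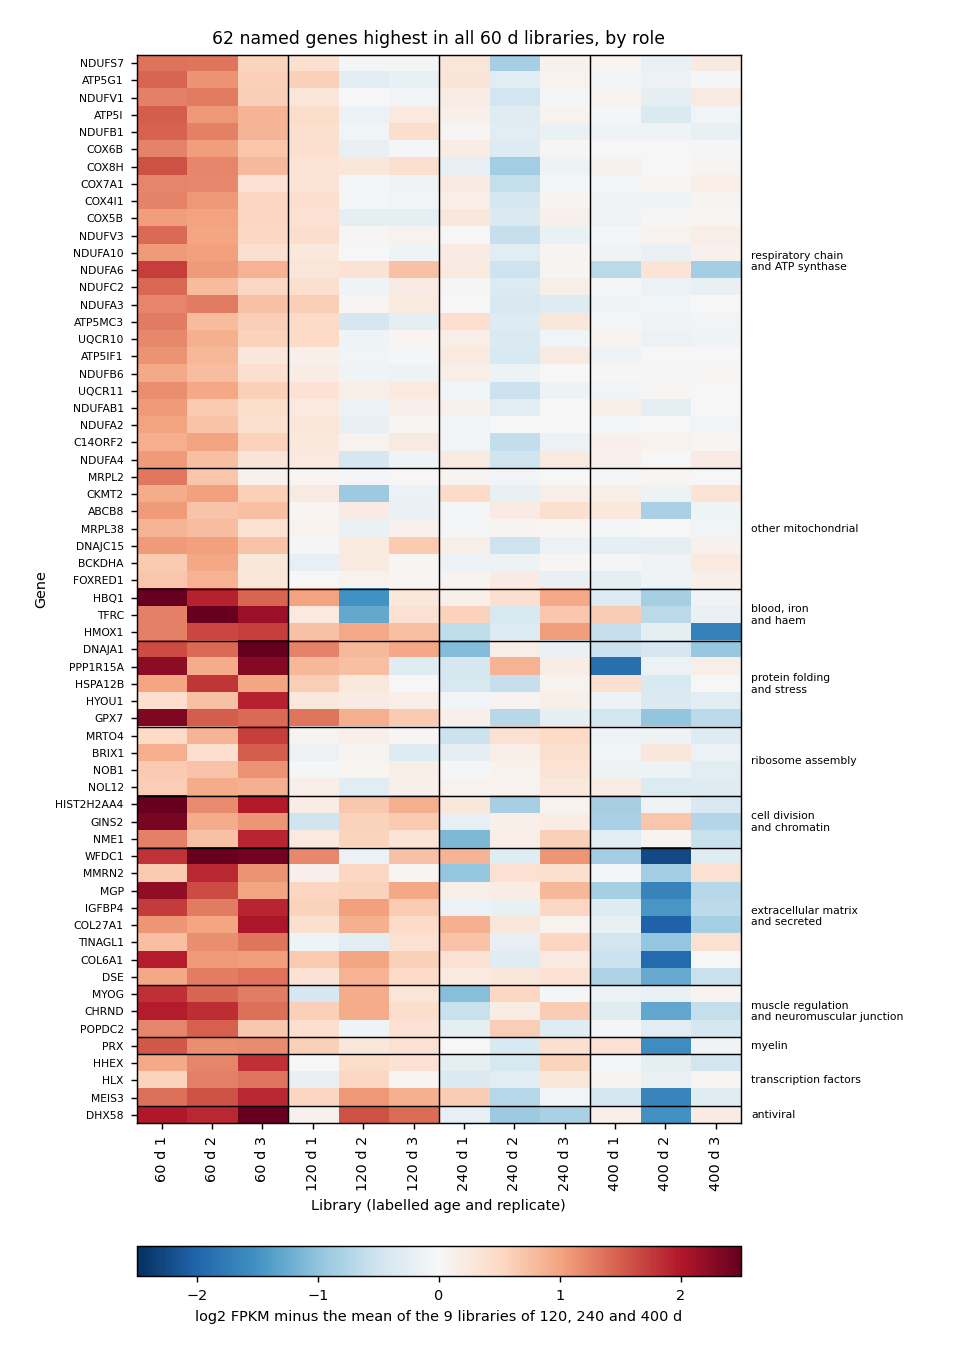
The 62 named genes grouped by role (rows) in the 12 libraries (columns, by labelled age and replicate). Colour is log2 FPKM minus the mean log2 FPKM of the 9 libraries of 120, 240 and 400 d. Colours stop at the ends of the scale. Of the libraries of 60 d, replicate 3 is palest in the respiratory rows and darkest in those of DNAJA1, HYOU1, BRIX1, MRTO4 and NOB1.

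Transcription factors HHEX, HLX and MEIS3, homeodomain proteins, were all highest in replicate 3 of 60 d, and HHEX was at 2.07, 2.51 and 3.83 FPKM there against 0.785 to 1.60 at the other ages. The highest ratios belonged to 2 newly assembled genes of unknown function. The feature pig_newGene_558 (chr11:24079283-24081159, 1085 bases) was at 13.4, 16.6 and 9.17 FPKM at 60 d and 0.447 to 2.94 elsewhere, a ratio of 7.92. The feature pig_newGene_1638 (chr2:157639266-157641981, 1219 bases) was at 17.997, 6.38 and 11.1 FPKM at 60 d and 0 to 3.18 elsewhere, a ratio of 6.59. They are 2 of 12 newly assembled genes that passed, of 520 with at least 50 counts at 60 d.

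Some unnamed members lay side by side and may not be separate genes. On chr6, ENSSSCG00000003517 (73960120-74006572) and ENSSSCG00000027402 (74087728-74091963) lay within 100 kb of each other, and pig_newGene_2435 (73887848-73902851) lay within 100 kb of the former. At 60 d they were at 16.8, 27.4 and 27.2, at 13.3, 17.5 and 17.98 and at 16.7, 22.1 and 20.8 FPKM, lowest in replicate 1 in each case. On chr9, pig_newGene_3022 (10966790-10971281) overlapped ENSSSCG00000014859 (10966820-10977247), so their reads may be shared. ENSSSCG00000014859 was at 351, 269 and 443 FPKM at 60 d, 233, 235 and 207 at 120 d, 52.96, 39.3 and 68.7 at 240 d and 69.9, 28.9 and 46.4 at 400 d. COX4I1 and GINS2, and PRX and HIPK4, were also neighbours within 100 kb, which makes 5 pairs in all.

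Several other fixed lists held no member. With the 50 counts at 60 d that the rule requires, these offered 28 of 30 immediate early, 21 of 25 cholesterol, 19 of 19 fatty acid synthesis, 13 of 20 amino acid and one-carbon and 16 of 23 chemokine and cytokine features. Of the cell type markers they offered 5 of 6 for myofibres, 5 of 10 for fat cells, 8 of 8 for endothelial cells, 9 of 17 for leukocytes and 6 of 7 for smooth muscle cells. Since 1.32% of all features with that count passed, nothing is read from lists of this size holding none.

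The sums of some of these markers also differed among the ages. The summed FPKM of 17 leukocyte markers was 230.3, 123 and 132 at 60 d, 139, 499.97 and 195 at 120 d, 65.1, 64.7 and 97.6 at 240 d and 63.8, 20.7 and 65.2 at 400 d. All 3 libraries of 60 d lay above the 6 of 240 and 400 d, and they overlapped those of 120 d. The 8 endothelial markers summed to 122, 231 and 175 at 60 d, 147, 198 and 114 at 120 d, 101, 104 and 133 at 240 d and 102, 63.5 and 81.5 at 400 d, so 60 d lay above 400 d and overlapped 120 and 240 d. The 7 smooth muscle cell and pericyte markers went the other way, at 2583, 2465 and 2816 at 60 d, 4441, 2260.3 and 2638 at 120 d, 4519.6, 4746 and 3540.5 at 240 d and 3437, 4399.8 and 3689 at 400 d, with 240 and 400 d above all of 60 d. The 10 fat cell markers overlapped among all ages, with sums of 125 to 328 at 60 d and 85.6 to 269 elsewhere. The part of these cells in the levels of the 119 genes was not tested.

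The remaining members were not grouped. Among them, TCHP, a keratin-binding protein, the potassium channel subunit gene KCNAB1, the glycosyltransferase gene GALNT18 and the glycolytic gene PGAM1 had ratios of 2.03, 1.78, 1.94 and 1.56.

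The rule set no order among the later ages, but it did use their values. Every later library had to lie below those of the youngest labelled age, which capped the later values of the chosen genes. The values of all features tested were not capped in this way. Shares and directions of calls among the later ages, here and below, are therefore set beside those of all features as a description, not as an independent test. At 400 against 120 d, edgeR's quasi-likelihood test with a Benjamini-Hochberg adjusted p of at most 0.05 called 20 of the 119 genes (16.8%), beside 13.9% of all features tested. All 20 were lower at 400 d, where 8.32% of all features were called lower, and none was higher, where 5.55% were. The median log2 change of the 119 was -0.36 and that of all features 0.0069. The number rests on single libraries, for it was 5 without replicate 2 of 400 d and 10 without replicate 1 of 400 d. It was 13, 9 and 12 without replicates 1, 2 and 3 of 120 d. Calls over all features fell as well, from 1847 to 213, 904, 1164, 523 and 1244 in the same order, so the loss was not particular to the 119.

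The groups took different shares of these calls. None of the 24 respiratory genes was called, with log2 changes from -0.78 to 0.17 and a median of -0.11, and none of the 7 other mitochondrial genes or the 4 of ribosome assembly. Of the 8 matrix and secreted genes, 4 were called, with a median log2 change of -1.39. The wider fixed list of collagen and matrix genes, which holds 3 of the 8, had 36 of 53 called lower and a median of -1.40. MGP fell by 1.72 ± 0.33 (SE) on the log2 scale (edgeR adjusted p = 0.012), IGFBP4 by 1.46 ± 0.31 (edgeR adjusted p = 0.015), DSE by 1.41 ± 0.23 (edgeR adjusted p = 0.0080) and COL6A1 by 1.37 ± 0.41 (edgeR adjusted p = 0.044). CHRND fell by 1.26 ± 0.37 (edgeR adjusted p = 0.042), whereas MYOG had a log2 change of -0.38 and was not called. MEIS3, HMOX1, GPX7, the kinase gene HIPK4 and RTKN were the other named genes called, with log2 changes of -1.52, -1.51, -1.35, -1.36 and -0.78. LOC100737434 showed the largest fall, -2.66 ± 0.34 on the log2 scale (edgeR adjusted p = 0.0055). Cell type markers moved in the same comparison: 8 of 15 leukocyte markers were called lower at 400 d (median log2 change -2.13), and so were 2 of 6 fibroblast markers (median -0.97), 1 of 8 endothelial markers (median -0.84) and 3 of 7 smooth muscle cell and pericyte markers (median -0.33). Their part in the falls of the members was not tested, and neither was the difference between the groups.

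At 240 against 120 d, 3 of the 119 genes (2.52%) were called, beside 5.12% of all features, and all 3 were lower at 240 d, where 2.91% of all features were. These were ENSSSCG00000014859, with a log2 change of -2.17 ± 0.33 (SE; edgeR adjusted p = 0.022), the overlapping pig_newGene_3022 with -1.61 and HIPK4 with -1.56. None was left without replicate 3 of 120 d or without replicate 2 or 3 of 240 d, where 0, 5 and 1 of all features were called in place of 682. Without replicate 1 of 60 d 6 were called, beside 1376 features, and without replicate 3 of 60 d 5, beside 807. Between 240 and 400 d, edgeR called none of the 119 and 0% of all features. At an unadjusted p under 0.05 it found 16 of the 119 and 1176 features, and the DESeq2 Wald test called 4 and 66.

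In the order of the means, 120 d came second for 80 of the 119 genes, 240 d for 31 and 400 d for 8, and 400 d was the lowest age for 75. The mean was lower at each later labelled age for 51 genes, including 7 of the 8 matrix and secreted genes, 4 of the 5 of protein folding and stress, all 3 of muscle regulation and PRX. It did so for 6 of the 24 respiratory genes. The highest of the 3 later means was a median of 1.14 times the lowest for the respiratory genes, 1.09 times for the other mitochondrial genes and 2.69 times for the matrix and secreted genes. The 3 later ages lay within 1.2 times of each other for 34 of the 119 genes. The rule capped these later values, and the order and spread of the means were not counted over all features. They describe the 119 genes, and no trait particular to these genes is read from them.

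**Figure D5:**
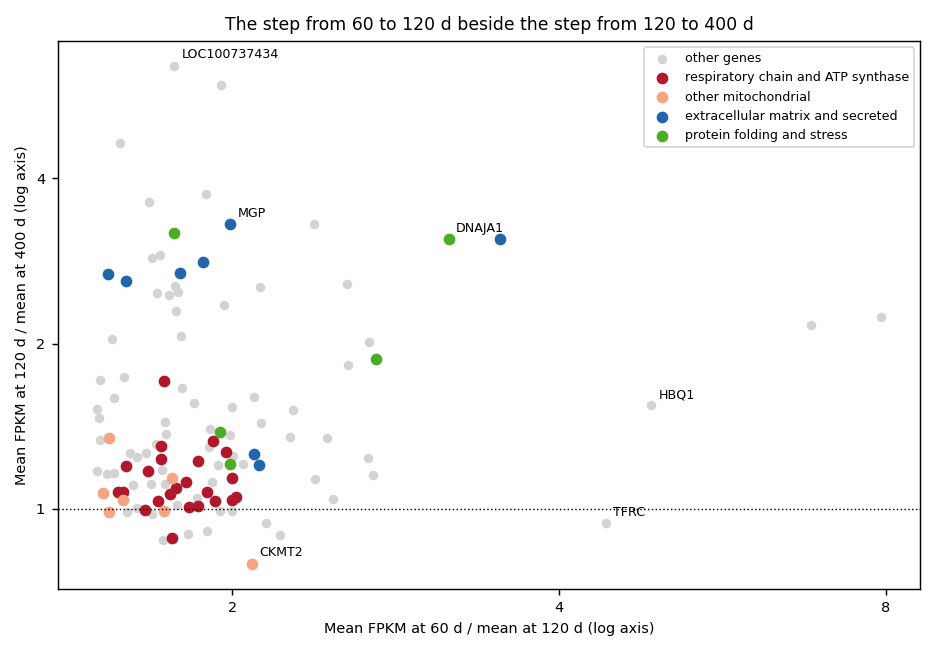
Mean FPKM at 60 d over that at 120 d (horizontal log axis) against mean FPKM at 120 d over that at 400 d (vertical log axis) for the 119 genes, coloured by role. The dotted line marks equal means at 120 and 400 d. Respiratory genes gather near the line, between 0.887 and 1.71, and matrix and secreted genes lie between 1.203 and 3.30.

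The groups also differed in how they bore a change of scale. On TMM-scaled counts 23 of the 24 respiratory genes still passed, and on counts scaled by the library total 10 did. MYOG, CHRND, POPDC2 and PRX passed on both scales and when divided by the median of the length class. So did HBQ1, DNAJA1, PPP1R15A, WFDC1, DHX58, IGFBP4 and both leading newly assembled genes, and 35 of the 119 genes in all. TFRC failed only on the library total, CKMT2 only on the length class, and MGP on both.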

How the data were processed

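LD muscle RNA of 12 pigs, 3 at each labelled age, was sequenced as 1 library a pig. The authors deposited whole-number read counts per feature without normalization, and FPKM values from Cufflinks after mapping to Sscrofa10.2 with TopHat2. The labels' processing notes name other tools and a mouse build, but the files hold pig identifiers. Versions are not given in the sources used here. A normalized column, the count times 1 factor per library, was not used.

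The FPKM chose and described the genes. Ages came from the labels, and replicate numbers follow the order of the files' columns. Differences among 120, 240 and 400 d were tested on the deposited counts with edgeR 4.0.16 (quasi-likelihood test, R 4.3.3) in 1 fit of the 12 libraries, with TMM normalization, over 13314 features averaging at least 10 counts at any age, at a false discovery rate of 0.05. A standard error is the absolute log2 change over the square root of F. The pipeline was tested on simulated counts. DESeq2 1.42.0 served as an alternative, with other filters, scales and leave-one-out fits. Figures were drawn with matplotlib 3.10.9, and tables made with Python 3.11.15, pandas 2.3.3 and numpy 2.4.6.

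The genes and lists were chosen with earlier results of these data known. Named genes were those on a list, the 20 with the highest ratio, and 5 on each side of the ratio of 1.5; the others were named, and roles assigned, after their values were seen. Symbols came from the study's gene tables and a reference list, which matched 11472 of 22657 identifiers. Names in 1 of those tables equalled the reference for 195 of 387 shared identifiers, so that table was not used for naming. No strand-specific counting is stated, so overlapping and antisense genes cannot be told apart. No sequences were used here. Some genes, with the nerve and Schwann cell marker list, are not reported here.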

Additional observations from a re-analysis of the deposited data

How the results depend on the processing

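The number of genes highest at 60 d, 119, was 206 at the lower ratio limit tried and 23 at a ratio of 2, and 50 on counts scaled by the library total, a scale added after seeing the data. Dividing by the median of the length class, also added then, gave 93. It stayed within 1.5 times of 119 with TMM-scaled counts, DESeq2 size factors, count minimums of 10 and 100 (177 and 99) and with the genes of the 4 tables kept. Leaving out each library, which also loosens the order that the rule asks for, gave 114 to 288. With an adjusted p of at most 0.01 and a log2 change of at least 1 in size, the features called were 0 at 240 against 120 d, 155 at 400 against 120 d and 177 at 60 d against the other ages, in place of 682, 1847 and 1835, and the members called were 0 and 4 in the first 2. The DESeq2 Wald test called 1767 features and 9 members at 240 against 120 d, and 66 features and 4 members at 400 against 240 d. Leaving out each library gave 0 to 1376, 213 to 2413 and 1189 to 1905 features in these 3 comparisons and 0 for 240 against 400 d. It gave 0 to 6, 5 to 24 and 0 members for 120 against 240 d, 120 against 400 d and 240 against 400 d. DESeq2 size factors, no filter, a mean of at least 50 counts and fits of only the ages compared kept each of these counts within 1.5 times. Depth limits genes near 50 counts, and 3 libraries an age limit the tests. No paired analysis was possible because each library came from a different pig.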
